A study of Homo sapiens with 16 samples.

Results

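The late transcriptional response to the higher of 2 doses of CC-671 was measured by comparing CAL51 cells exposed to 10 µM CC-671 for 24 h with cells given the solvent DMSO for the same 24 h. The 5 libraries compared, 3 treated and 2 vehicle, were taken by their sample titles from the 16 libraries of the series, which also hold 3 µM and 10 µM treatments and DMSO at 6 h and 3 µM CC-671 at 24 h. CAL51 is a breast cancer cell line that the labels class as triple negative, at passage 10 and of near-diploid karyotype with 28% tetraploidy. All groups were cultured alike in DMEM with fetal bovine serum, all are of this 1 line, and the replicates are described as biological. Poly-A RNA was made into strand-specific libraries and sequenced as pairs of 100-nt reads.

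CC-671 is a small-molecule inhibitor of TTK and CLK2. TTK (also called MPS1) is the kinase that starts the spindle assembly checkpoint at unattached kinetochores, and without it cells leave mitosis before their chromosomes are aligned. CLK2 belongs to the CDC2-like kinases, which phosphorylate serine and arginine-rich (SR) proteins and so control where these splicing factors sit and which exons they act on.

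The 5 libraries held between 104609173 and 119935688 read pairs assigned to genes, so precision was set mainly by the number of libraries. Replicates correlated at 0.997 in log2 CPM (counts scaled to a common library total). The 2 vehicle libraries differed more from each other than the treated ones did. Their chi-square per gene, set against counting error, was 7.97, beside 2.91 to 3.41 for treated pairs. The mitochondrial share was 2.16% in vehicle library 1 and 2.84% in vehicle library 2, against 3.00% to 3.14% with CC-671. Read pairs that fell outside annotated exons made up 5.93 ± 0.203% (SD, n = 3) of the treated libraries and 4.43 ± 0.238% (SD, n = 2) of the vehicle libraries, with no overlap. The exact two-sided permutation p was 0.1, the smallest that 10 arrangements allow, and the part of this difference in the gene results was not tested. ESR1 and PGR, the estrogen and progesterone receptor genes, stayed under 0.05 CPM in each of the 5 libraries, as did TFF1, whereas ERBB2 stood at 192 and 189 CPM with vehicle. In the same luminal and receptor list XBP1, FOXA1 and GATA3 averaged 100, 15.2 and 4.05 CPM with vehicle. That list summed to 548 to 577 CPM with CC-671 and 569 to 580 CPM with vehicle. KRT8, KRT18, KRT19 and EPCAM of simple epithelia were abundant, whereas CDH1 and CLDN4 of the same list averaged 44.9 and 2.16 CPM with vehicle. The basal keratins KRT5, KRT14 and KRT17 were under 0.05 CPM. In the same basal list EGFR, VIM and CAV1 were abundant, with means of 86.2, 212 and 200 CPM with vehicle, and TP63 was scarce (0.0469 CPM). This list summed to 539 to 544 CPM with CC-671 and 493 to 503 CPM with vehicle. Of 14 leukocyte markers, 8 (among them CD3D, CD3E and MS4A1) were under 0.05 CPM in every library, and the list summed to 6.59 to 7.26 CPM with CC-671 and 13.3 to 13.9 CPM with vehicle, most of it PTPRC, which fell by 1.26 ± 0.06. In the same list CD14 (1.87 ± 0.24) and CD79A (1.55 ± 0.24) rose, CD14 to between 0.496 and 0.570 CPM and CD79A to between 0.445 and 0.505 CPM. Their part in the gene results was not tested. Fibroblast markers summed to 1158 to 1197 CPM with CC-671 and 1335 to 1350 CPM with vehicle, most of it PDPN and COL3A1, with DCN, FAP and THY1 under 0.05 CPM. Endothelial markers summed to 13.3 to 14.1 CPM with CC-671 and 24.7 to 25.4 CPM with vehicle, with KDR under 0.05 CPM.

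Most of the measured transcriptome moved. Of 22007 genes tested with edgeR's quasi-likelihood F test, 14005 (63.6%) changed at a Benjamini-Hochberg adjusted p under 0.05, 6891 (31.3%) higher and 7114 (32.3%) lower with CC-671. Changes were mostly small: 2054 genes (9.33%) rose and 807 (3.67%) fell at least 2-fold (683 and 316 with a filter of 1 CPM in 5 libraries, which tests fewer genes), and the quartiles of all genes were -0.31 and 0.39 on the log2 scale, with a median of 0.01. The 3 treated and 2 vehicle libraries did not overlap in 77.5% of all genes tested and in 99.6% of those that changed. Without a scaling factor for library composition, the median of all genes moved up by 0.11 and the calls split into 8790 higher and 5322 lower, so 62.3% rather than 49.2% of the changed genes were higher. Values below are log2 fold changes of 10 µM over DMSO with their standard errors (SE) and with the scaling factor, and a gene is said to have risen or fallen where it passed the test. The gene lists below and their members were chosen with earlier results of these data known, so counts over a list describe its members and are no independent test. In bulk RNA, fewer cells of a kind and less RNA in each cell cannot be told apart.

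**Figure D1:**
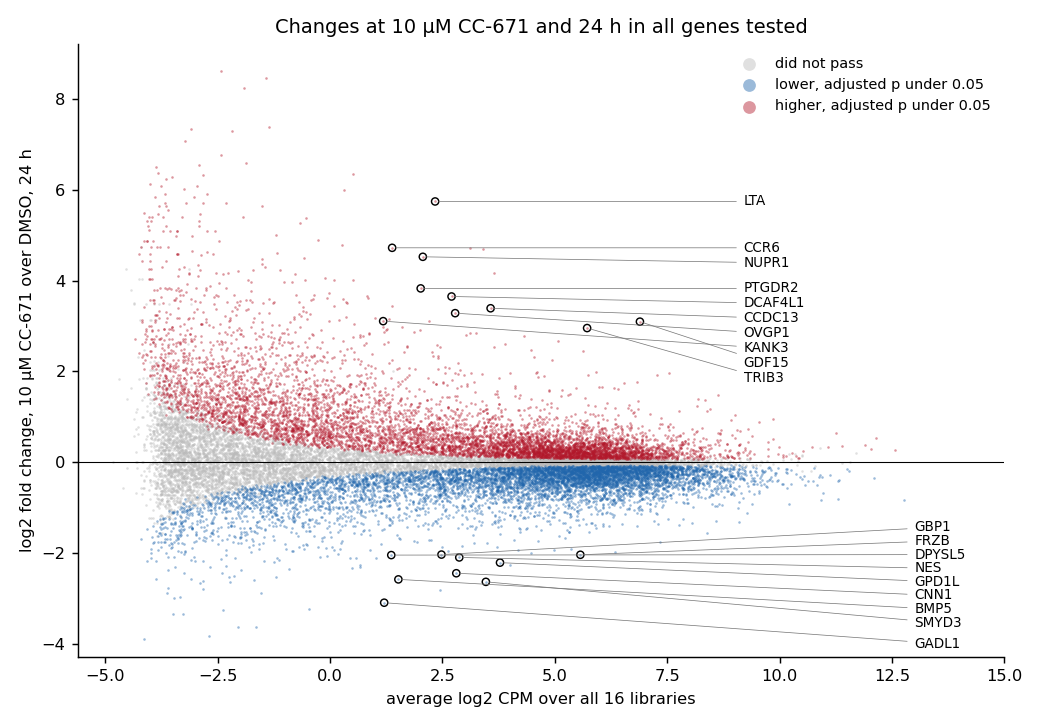
Each dot is 1 of the 22007 genes tested, with its average log2 CPM over the 16 libraries on the horizontal axis and its log2 fold change of 10 µM CC-671 over DMSO at 24 h on the vertical axis; red genes were higher and blue genes lower at an adjusted p under 0.05, and grey genes did not pass. The 10 largest rises and 9 of the largest falls among protein-coding genes with an average of at least 1 log2 CPM are circled and named, from LTA at 5.75 to GADL1 at -3.10.

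The 10 largest rises joined genes that were nearly silent with vehicle and known stress genes. They were taken among protein-coding genes with an average of at least 1 log2 CPM over all 16 libraries. Some met this average through groups outside the comparison. CCR6 and PTGDR2 averaged 7.33 and 10.6 CPM with 10 µM at 6 h, but 1.26 and 1.41 CPM with it at 24 h. LTA, which encodes the cytokine lymphotoxin alpha, stood at 6.71, 7.22 and 6.57 CPM with CC-671 and at 0.125 and 0.128 CPM with vehicle. The groups were far apart, and LTA rose by 5.75 ± 0.19 (adjusted p = 7.23e-18, edgeR). CCR6, the receptor of the chemokine CCL20, rose by 4.73 ± 0.36 from 0.0534 and 0.0394 CPM to between 1.16 and 1.38 CPM. NUPR1, a small nuclear protein induced by many stresses, stood at 10.7, 11.5 and 12.4 CPM against 0.569 and 0.423 CPM and rose by 4.53 ± 0.12 (adjusted p = 4.06e-22, edgeR). GDF15, a secreted stress cytokine, stood at 204, 219 and 215 CPM against 25.2 and 24.5 CPM and rose by 3.10 ± 0.10. TRIB3, a pseudokinase, stood at 106, 113 and 112 CPM against 14.5 and 13.9 CPM and rose by 2.96 ± 0.26. These last 2 genes were by far the most abundant of the 10. The other 5 were PTGDR2 (3.83 ± 0.21), a receptor of prostaglandin D2, DCAF4L1 (3.65 ± 0.22), CCDC13 (3.39 ± 0.10), the oviductal glycoprotein gene OVGP1 (3.28 ± 0.14) and KANK3 (3.11 ± 0.14). In GENCODE, PTGDR2 and KANK3 overlap CCDC86 and RPS28 on the other strand, and CCR6 and CCDC13 overlap other, mostly non-coding genes. Whether the counting used strand is not given in the sources used here, so their values are uncertain, as are those of other genes that overlap a neighbour.

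The largest falls by the same rule held genes of several kinds, structural and developmental genes among them. GADL1, a decarboxylase gene, stood at 0.581, 0.665 and 0.665 CPM with CC-671 and at 5.38 and 5.50 CPM with vehicle, and fell by 3.10 ± 0.10 on the log2 scale. SMYD3, a lysine methyltransferase, fell by 2.64 ± 0.06, from 18.9 and 18.8 CPM to between 2.86 and 3.32 CPM; it overlaps several non-coding genes. FRZB, a secreted antagonist of Wnt ligands, stood at 19.4, 18.7 and 18.9 CPM against 79.1 and 76.9 CPM and fell by 2.04 ± 0.04 (adjusted p = 1.11e-23, edgeR). CNN1, which encodes calponin 1, an actin-binding protein of smooth muscle, is described with its group. The list also held BMP5 (-2.58 ± 0.10), a bone morphogenetic protein, GPD1L (-2.21 ± 0.05), the intermediate filament gene NES (-2.10 ± 0.08), DPYSL5 (-2.05 ± 0.10) and the interferon-induced GTPase gene GBP1 (-2.04 ± 0.08).

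Of the 5 target kinases and paralogs, 4 rose and TTK was slightly lower, beside 31.3% of all genes higher and 32.3% lower. TTK stood at 94.6, 90.4 and 95.3 CPM with CC-671 and at 103 and 101 CPM with vehicle, a difference of -0.13 ± 0.04 (adjusted p = 0.0143, edgeR). The groups did not overlap, but the call ended without a scaling factor (-0.01, adjusted p = 0.771), with a filter of 1 CPM in 5 libraries (adjusted p = 0.0673), without treated library 2 (adjusted p = 0.059) and without DMSO library 1 (adjusted p = 0.091). CLK2 stood at 79.5, 80.6 and 78.7 CPM against 52.2 and 55.6 CPM and rose by 0.56 ± 0.06. Its paralogs rose too: CLK3 by 1.05 ± 0.03, to between 75.5 and 76.0 CPM from 36.2 and 37.0 CPM, CLK4 by 0.93 ± 0.05 and CLK1 by 0.77 ± 0.04. CLK2 and CLK3 overlap HCN3 and EDC3 on the other strand, whose differences were 0.26 and 0.04, so these values are uncertain too.

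**Figure D2:**
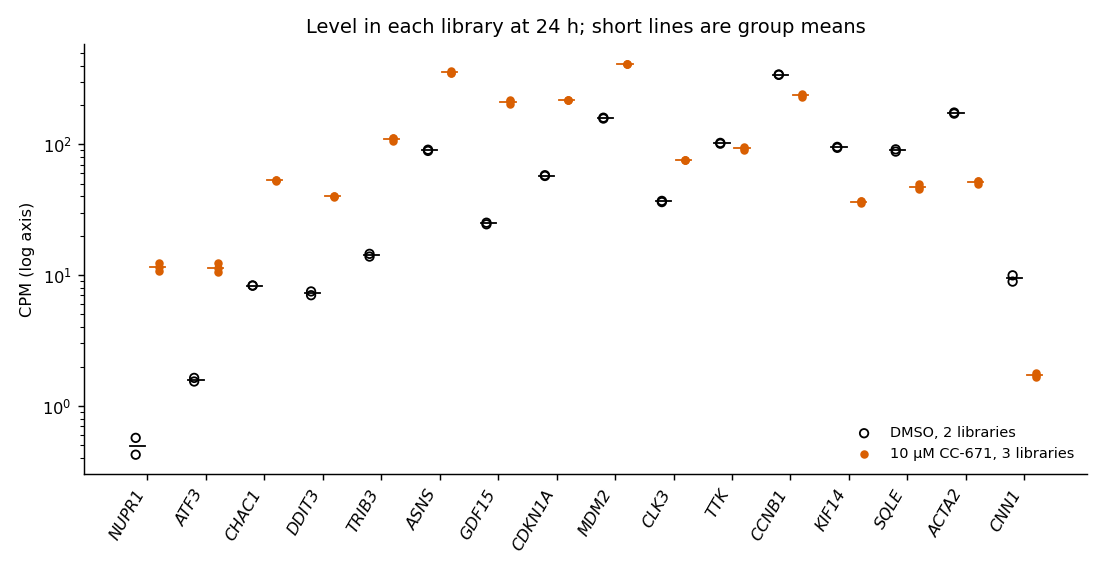
Normalised CPM on a log axis for 16 genes in each of the 2 DMSO (open circles) and 3 CC-671 (filled circles) libraries at 24 h, with short lines at the group means. The treated and vehicle points are apart for every gene shown, closest for TTK, and replicates lie close together except for NUPR1 with vehicle (0.423 and 0.569 CPM).

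Transcriptional targets of p53, the tumour suppressor that answers DNA damage and failed mitosis, were higher almost throughout. Of 36 listed targets, all were tested, 34 rose and 2 fell, with a median of 1.00 against 0.01 over all genes. CDKN1A, which encodes the CDK inhibitor p21, stood at 218, 217 and 218 CPM with CC-671 and at 57.3 and 58.1 CPM with vehicle. It rose by 1.91 ± 0.04 (adjusted p = 1.34e-22, edgeR), with the groups far apart beside the spread of replicates. MDM2, the ubiquitin ligase that degrades p53, rose by 1.38 ± 0.03, from 159.9 and 158 CPM to between 412 and 415 CPM; it overlaps a carboxypeptidase gene on the other strand, whose difference was -0.12. FDXR, a mitochondrial ferredoxin reductase, rose by 2.00 ± 0.05, and GADD45A, a growth arrest gene, by 1.93 ± 0.15. SESN2 (1.75 ± 0.06) and SPATA18 (1.73 ± 0.06) rose as well. The falls were PLK2 (-0.24 ± 0.03) and TP53I11 (-0.70 ± 0.04). Among 7 CDK inhibitor genes, 3 rose (CDKN1A, CDKN2B at 0.48 ± 0.10 and CDKN2A at 0.14 ± 0.05, not without DMSO library 1, adjusted p = 0.13) and 3 fell (CDKN2C at -0.81 ± 0.04, CDKN2D at -0.32 ± 0.07 and CDKN1B). The call of CDKN1B (-0.07 ± 0.03) was lost with treated library 1, 2 or 3 or DMSO library 1 left out (adjusted p of up to 0.345), and its sign turned without a scaling factor (0.04). Of 15 BCL2 family genes, 7 rose and 7 fell. The largest rises were in BH3-only genes, which promote apoptosis: PMAIP1 (1.99 ± 0.08), HRK (1.81 ± 0.20) and BBC3 (1.60 ± 0.07), whereas BCL2, which opposes apoptosis, fell from 36.2 and 36.2 CPM to between 18.1 and 19.3 CPM (-0.95 ± 0.04).

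Genes of the integrated stress response, in which phosphorylation of eIF2α raises translation of the transcription factor ATF4, were also higher. Of 28 listed ATF4 genes, 25 rose, 2 fell and VLDLR did not pass (0.00 ± 0.03; 0.12 higher, adjusted p = 0.00312, without a scaling factor), with a median of 0.87. FGF21, a secreted hormone, had 13, 13 and 9 reads with CC-671 and none with vehicle, which makes it at least 7.05-fold higher against a floor of 3 reads over the vehicle group; the floor covers counting error only, and FGF21 lies above the median of the list at this bound too. ATF3 stood at 10.5, 12.5 and 11.3 CPM against 1.64 and 1.54 CPM (2.85 ± 0.68). CHAC1, which degrades glutathione, stood at 53.5, 52.5 and 53.1 CPM against 8.30 and 8.34 CPM (2.67 ± 0.11). ASNS, asparagine synthetase, stood at 351, 351 and 362 CPM against 91.0 and 89.1 CPM and rose by 1.98 ± 0.04 (adjusted p = 1.12e-23, edgeR). The groups did not overlap in any of these genes, as in 99.6% of all genes that changed. DDIT3, the transcription factor CHOP, rose by 2.47 ± 0.23, MTHFD2 of one-carbon metabolism by 1.49 ± 0.05, and ATF4 mRNA itself by 0.92 ± 0.04. On the other strand DDIT3 overlaps MARS and MBD6 (differences of 0.635 and 0.850) and MTHFD2 overlaps SLC4A5 (2.54), so the values of both are uncertain. ALDH18A1 of proline synthesis (-0.72 ± 0.03) and CBS (-0.23 ± 0.05) fell, the latter not without a scaling factor (adjusted p = 0.0703).

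Promoters of this group are shown because ATF4 with a CEBP partner binds a composite element. The element was searched as TGATGNAAN on both strands in RefSeq windows of 300 bases (250 before to 50 after each start site, GRCh38.p14). It was found in 8 of 19 ATF4 genes that rose and had a window (42.1%), against 4.45% of 27305 genes in the table and 2.93% of the 12336 of them that were tested. Of all 22 listed ATF4 genes tested with a window, the same 8 had it (36.4%). As the list was chosen as ATF4 genes, the contrast with all genes is no test of the response. The stretches printed, 5′ to 3′ on the strand of the gene and all before the start site, have each match in capitals. They are FGF21 chr19:48755429-48755517 (plus strand), ATF3 chr1:212565176-212565264 (plus strand), CHAC1 chr15:40953221-40953309 (plus strand) and ASNS chr7:97872428-97872516 (minus strand).
FGF21: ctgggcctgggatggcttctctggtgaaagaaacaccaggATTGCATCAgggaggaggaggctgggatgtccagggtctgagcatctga
ATF3: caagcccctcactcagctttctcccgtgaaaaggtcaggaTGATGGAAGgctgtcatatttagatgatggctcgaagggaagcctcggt
CHAC1: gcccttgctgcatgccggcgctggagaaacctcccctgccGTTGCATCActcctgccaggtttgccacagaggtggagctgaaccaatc
ASNS: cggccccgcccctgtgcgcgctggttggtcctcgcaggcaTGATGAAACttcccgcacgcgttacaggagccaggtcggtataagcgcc
The match begins 55 bases before the start site in FGF21 and 68 in ASNS, and lies farther away in ATF3 (191) and CHAC1 (210). These were the 4 largest rises among genes with a match before the start site. A match describes these letters and not a bound site.

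Aminoacyl-tRNA synthetases, which charge tRNAs and include known ATF4 targets, split. Of 20 cytosolic genes, 10 rose and 9 fell, with a median of 0.08. AARS rose by 1.24 ± 0.03, from 193 and 190.3 CPM to between 448 and 467 CPM, SARS by 1.12 ± 0.04 and CARS by 1.04 ± 0.05. VARS fell by 0.89 ± 0.03, FARSB by 0.64 ± 0.04 and IARS by 0.64 ± 0.03. Of 21 chaperones and sensors of the endoplasmic reticulum (ER), 7 rose and 4 fell, with a median of 0.03; the share that rose was near that of all genes (31.3%). HERPUD1, a protein of ER-associated degradation, rose by 0.72 ± 0.16 and the sensor gene ERN1 by 0.62 ± 0.08, whereas CRELD2 fell by 0.74 ± 0.04 and HSP90B1 by 0.32 ± 0.04. Without a scaling factor, 12 ER genes rose and only these 2 fell; the falls of PDIA4 and EDEM1 (-0.11 and -0.14) were also lost without DMSO library 1 (adjusted p = 0.102 and 0.0836). Of 16 cytosolic and mitochondrial heat shock genes, 8 fell, or 5 with the filter of 1 CPM in 5 libraries, among them HSPD1 (-0.33 ± 0.03) and HSP90AB1 (-0.27 ± 0.03). The inducible pair HSPA1A and HSPA1B also fell, but these near-identical copies were scarce and their counts are uncertain. The 4 rises were of 0.15 or less (HSPA4L, HSPA4, DNAJB4 and HSPB1), and all but that of HSPA4L were lost without DMSO library 2 (adjusted p = 0.0571 to 0.233).

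Genes of the actin cytoskeleton fell as a block. All 24 listed contractile genes were tested and fell, with a median of -0.88 on the log2 scale. Many of them are targets of serum response factor (SRF), whose coactivators are held by free actin monomers. CNN1 stood at 1.78, 1.74 and 1.68 CPM with CC-671 and at 9.96 and 8.92 CPM with vehicle, and fell by 2.45 ± 0.08. ACTA2, smooth muscle actin, stood at 49.6, 52.4 and 52.7 CPM against 172 and 175 CPM and fell by 1.75 ± 0.04 (adjusted p = 8.66e-24, edgeR). TAGLN, transgelin, fell by 1.56 ± 0.04 and ACTG2 by 1.45 ± 0.05. Abundant members fell too: ACTB stood at 4075, 4104 and 4174 CPM against 7395 and 7379 CPM (-0.84 ± 0.03), and VCL, vinculin, fell by 1.13 ± 0.04. No treated library reached a vehicle library in any of the 24 genes, beside 77.5% of all genes tested and 99.6% of those that changed. The count was also 24 in each of the 13 alternatives run, which use the same members. As these were chosen with earlier results of these data known, the count describes them and is no independent test.

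The CArG box, to which SRF binds, was found in the windows of 8 of the 21 genes of this list that had one (38.1%), against 1.60% of the 27305 genes in the table and 1.64% of those tested. Genes of the list had 1.81 windows each on average, against 1.29 in the table and 1.45 in those tested. As the list was chosen as contractile genes and every member fell, the contrast with all genes is no test of the response. Among the genes with a box, the 4 with the largest falls are ACTG2 chr2:73892895-73892984 (plus strand), MYLK chr3:123620593-123620682 (minus strand), CNN2 chr19:1026479-1026568 (plus strand) and TPM4 chr19:16067325-16067414 (plus strand), again with the box in capitals and all before the start site.
ACTG2: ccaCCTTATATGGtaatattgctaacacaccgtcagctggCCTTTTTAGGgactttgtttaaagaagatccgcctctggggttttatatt
MYLK: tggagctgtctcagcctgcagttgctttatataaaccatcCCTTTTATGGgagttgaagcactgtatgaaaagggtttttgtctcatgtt
CNN2: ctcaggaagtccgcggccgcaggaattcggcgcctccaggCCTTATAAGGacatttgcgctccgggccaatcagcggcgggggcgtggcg
TPM4: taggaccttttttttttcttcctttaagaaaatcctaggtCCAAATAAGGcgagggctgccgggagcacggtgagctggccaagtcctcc
In ACTG2, which has 2 boxes, the nearer one begins 73 bases before the start site, and the boxes of CNN2, MYLK and TPM4 begin 89, 94 and 173 bases before it. MYLK, myosin light chain kinase, stood at 136, 129 and 132 CPM against 316 and 317 CPM and fell by 1.26 ± 0.03 (its antisense gene MYLK-AS2 differed by 5.11, which leaves the value uncertain), CNN2 by 0.97 ± 0.03 and TPM4, a tropomyosin, by 0.92 ± 0.03.

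Matrix and adhesion genes were mostly lower. Of 30 collagen, laminin and integrin genes, 23 fell and 5 rose, with a median of -0.42. ITGB5 fell by 1.33 ± 0.03, from 79.2 and 75.1 CPM to between 30.3 and 31.2 CPM, and COL12A1 by 1.33 ± 0.10. ITGA2 (1.09 ± 0.16) and ITGA3 (0.62 ± 0.04) were among those that rose, as were COL6A2 (0.19 ± 0.04) and ITGA5 (0.13 ± 0.04), the last not without treated library 3 (adjusted p = 0.0732) or DMSO library 2 (adjusted p = 0.134). Of 20 targets of YAP and TEAD, the effectors of Hippo signalling, 13 fell and 3 rose, or 6 without a scaling factor, with a median of -0.28. ARHGEF17 (-1.02 ± 0.05), TGFB2 (-1.01 ± 0.08) and FJX1 (-0.97 ± 0.07) fell. ANKRD1, a muscle ankyrin repeat protein, rose by 1.46 ± 0.23, to between 42.0 and 46.2 CPM. CTGF (0.24 ± 0.08) and AMOTL2 (0.12 ± 0.04) rose less, and neither call held with DMSO library 1 or 2 left out (adjusted p = 0.0573 to 0.0988).

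Mitotic genes were lower in most cases. Of 46 listed genes of G2 and mitosis, 39 fell, 1 rose (4 without a scaling factor) and 6 missed the threshold (median -0.44). CCNB1, the cyclin that drives entry into mitosis, stood at 243, 231 and 238 CPM with CC-671 and at 342 and 339.9 CPM with vehicle, and fell by 0.52 ± 0.04. KIF14, a mitotic kinesin, stood at 37.0, 35.5 and 37.0 CPM against 95.7 and 94.1 CPM and fell by 1.38 ± 0.05 (adjusted p = 2.12e-14, edgeR). KIF20B fell by 1.14 ± 0.07, KIF4A by 0.87 ± 0.04 and CCNA2 by 0.86 ± 0.04. KIF2C, which depolymerises microtubules at centromeres, rose by 0.14 ± 0.03. Of 25 genes of the checkpoint and kinetochore, 18 fell and 2 rose (SKA3 at 0.36 ± 0.03 and SKA1 at 0.15 ± 0.04), with a median of -0.20. SPC24 and SPC25, subunits of the NDC80 complex, fell by 1.10 ± 0.04 and 1.01 ± 0.04, and the checkpoint kinase gene BUB1 by 0.70 ± 0.04.

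The cell cycle homology region (CHR), through which the DREAM complex represses late cell cycle genes, was searched as TTTGAA on both strands. It was found for 23 of the 33 mitotic genes that fell and had a window (69.7%), against 18.2% of all 27305 genes and 14.3% of those tested. CCAAT, the box of NF-Y, was found for 26 of these 33 (78.8%) against 39.7% of all genes and 42.7% of those tested. Over all 39 listed mitotic genes tested with a window the shares were alike, with a CHR in 27 (69.2%) and CCAAT in 31 (79.5%). The contrast with all genes thus describes the list and does not set apart the members that fell. The 4 genes with the largest falls and a CHR before the start site are KIF4A chrX:70290030-70290103 (plus strand), KIF11 chr10:92593062-92593129 (plus strand), SMC4 chr3:160399535-160399620 (plus strand) and ESPL1 chr12:53268228-53268298 (plus strand), with the CHR in capitals.
KIF4A: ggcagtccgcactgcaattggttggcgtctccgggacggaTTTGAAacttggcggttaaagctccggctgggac
KIF11: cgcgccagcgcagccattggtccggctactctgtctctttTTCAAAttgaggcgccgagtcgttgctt
SMC4: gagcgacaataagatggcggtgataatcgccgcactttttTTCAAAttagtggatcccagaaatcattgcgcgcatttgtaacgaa
ESPL1: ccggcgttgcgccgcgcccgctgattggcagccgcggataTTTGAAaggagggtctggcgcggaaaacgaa
The CHR begins 28 to 34 bases before the start site in KIF11, ESPL1 (31) and KIF4A, and 75 in SMC4. KIF11, the kinesin that separates the spindle poles, stood at 151, 144 and 152 CPM against 259 and 259 CPM and fell by 0.80 ± 0.04. SMC4, a condensin subunit, fell by 0.77 ± 0.03 and ESPL1, the separase gene, by 0.60 ± 0.04.

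S-phase genes moved both ways. Of 42 DNA replication genes, 23 fell and 9 rose, with a median of -0.10. POLA1, the catalytic subunit of the primase polymerase, fell by 0.99 ± 0.05 and RRM2, of ribonucleotide reductase, by 0.95 ± 0.03, whereas the licensing factor gene CDT1 rose by 0.57 ± 0.03 and MCM5 by 0.20 ± 0.03. The median of this list changed sign without a scaling factor (0.01, with 13 falls and 15 rises), so it gives no direction for the list. Of 19 regulators of G1 and S, 15 fell and 2 rose, CCND2 by 2.13 ± 0.14 and E2F2 by 0.36 ± 0.04; MYBL2 fell by 0.60 ± 0.03, and 9 of the 19 fell without a scaling factor. Of 28 DNA repair genes, 18 fell and 2 rose (5 without a scaling factor), among them RAD51C (0.26 ± 0.04), with a median of -0.22; BRIP1, a helicase partner of BRCA1, fell by 0.83 ± 0.04. Among 21 histone genes tested, 13 rose and 5 fell. Replication-type genes such as HIST1H3H (1.85 ± 0.15) and HIST3H2A (1.28 ± 0.08) rose, and all 5 falls were in genes of replacement or linker type, such as H2AFX (-0.49 ± 0.03) and H3F3A (-0.29 ± 0.04). Canonical histone mRNAs mostly lack a poly-A tail, so poly-A libraries hold only part of them, and copies of these genes share reads.

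**Figure D3:**
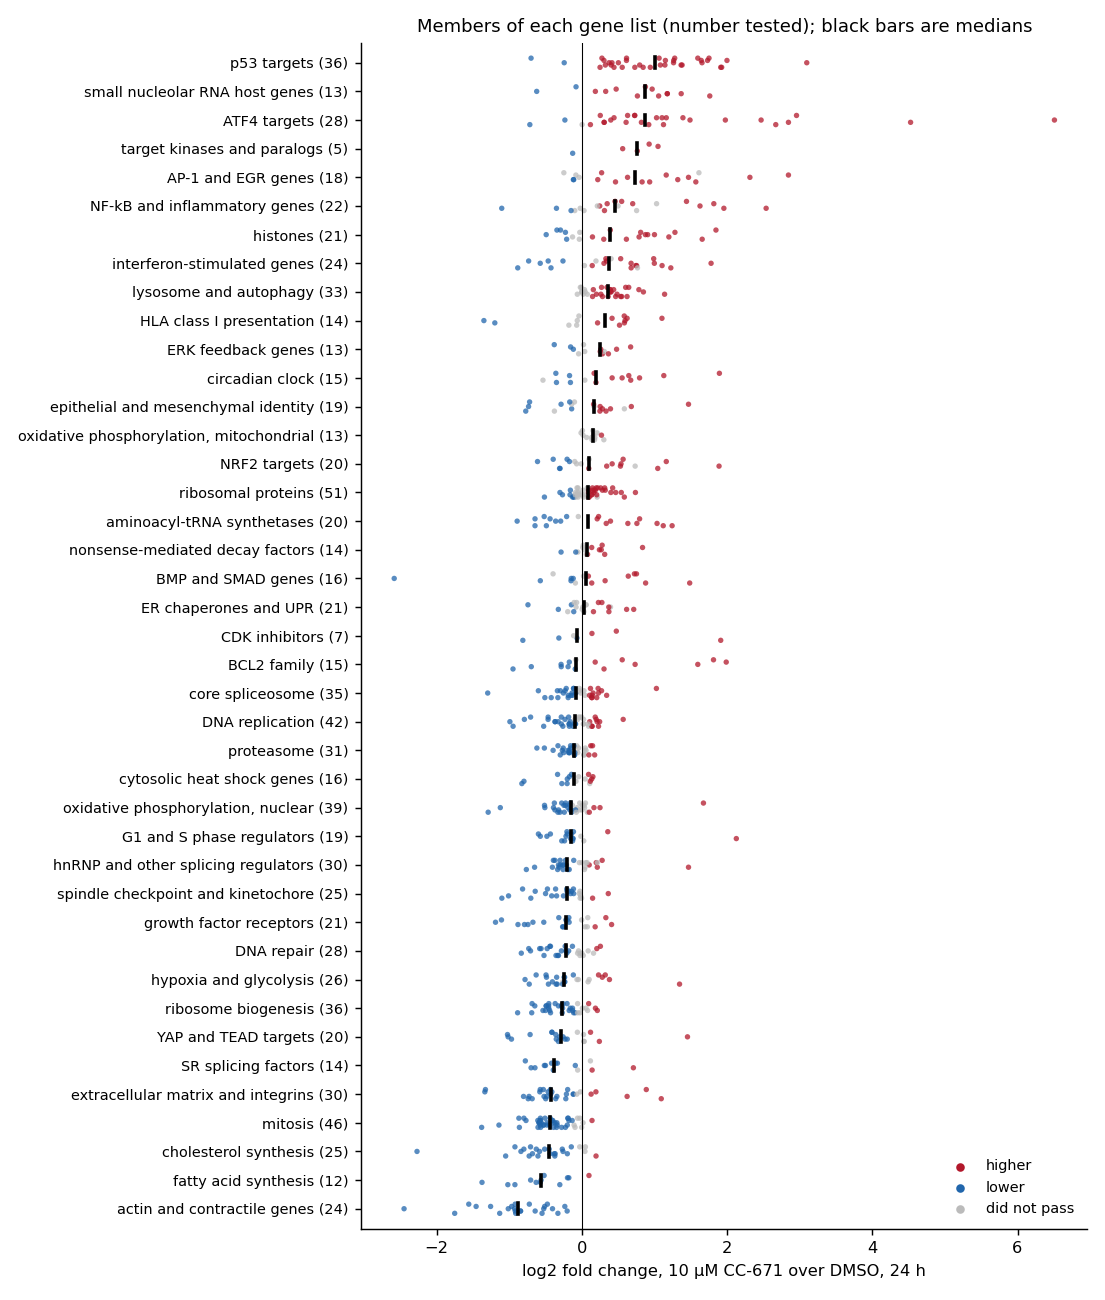
Log2 fold change of 10 µM CC-671 over DMSO at 24 h for each tested member of 41 gene lists, ordered by the list's median (black bar), with the number tested in brackets; red members were higher, blue lower, and grey did not pass. The p53 targets have the highest median (1.00) and the actin and contractile genes the lowest (-0.88); the ATF4 gene farthest to the right is FGF21, whose fitted value has no vehicle reads behind it.

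Genes of sterol and fatty acid synthesis, driven by the SREBP factors, were lower. Of 25 sterol genes, 21 fell, 3 did not pass and HSD17B7 rose by 0.20 ± 0.06, not without DMSO library 2 (adjusted p = 0.0825); 3 rose without a scaling factor, and the median was -0.45. SQLE, squalene epoxidase, stood at 45.7, 47.1 and 49.6 CPM with CC-671 and at 91.6 and 88.0 CPM with vehicle, and fell by 0.92 ± 0.04. The groups did not overlap, as in 99.6% of all genes that changed. LSS, lanosterol synthase, fell by 1.05 ± 0.03 and FDPS of the isoprenoid steps by 0.84 ± 0.03. Of 12 fatty acid genes, 11 fell, with a median of -0.57, among them ACACA (-1.02 ± 0.04), FADS2 (-0.92 ± 0.03) and ELOVL6 (-0.70 ± 0.04). SREBF1, the exception, was 0.10 ± 0.04 higher, a call lost without treated library 2 or either DMSO library (adjusted p = 0.0527 to 0.124). A sterol regulatory element searched as TCACNCCAC was found for 1 of 14 sterol genes that fell and had a window, SREBF2 (7.14%), against 1.39% of all genes and 1.52% of those tested. Over all 18 listed sterol genes tested with a window the count was also 1 (5.56%).

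Lysosome and autophagy genes were higher. Of 33 tested, 24 rose, 9 missed the threshold and none fell (median 0.36), and 32 rose without a scaling factor. GABARAPL1, an autophagosome protein of the ATG8 family, stood at 25.5, 26.4 and 27.3 CPM against 12.1 and 11.8 CPM and rose by 1.14 ± 0.06. NEU1, lysosomal sialidase, rose by 0.85 ± 0.04, from 116 and 115 CPM to between 204 and 214 CPM, MAP1LC3B by 0.79 ± 0.04 and NPC2, a lysosomal carrier of cholesterol, by 0.65 ± 0.04. The core of the CLEAR element, to which TFEB binds, was searched as TCACGTGA. It was found for 4 of 19 genes that rose and had a window (21.1%), against 1.18% of all genes and 2.03% of those tested. These 4 were MCOLN1, LAMP1, CTSA and ATP6V0D1. Over all 26 listed genes tested with a window it was found for 5 (19.2%), so it does not set apart those that rose.

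Splicing and RNA surveillance genes moved both ways. Of 14 SR factor genes, whose proteins CLK kinases phosphorylate, 10 fell and 2 rose, with a median of -0.38. SRSF10 fell by 0.78 ± 0.05, SRSF2 by 0.70 ± 0.03, from 458 and 460.0 CPM to between 278 and 287 CPM, and SRSF7 by 0.64 ± 0.05. SRSF12 rose by 0.71 ± 0.06 and SRSF11 by 0.14 ± 0.03. Of 30 hnRNP and other regulators, 18 fell and 5 rose, or 17 and 11 without a scaling factor; HNRNPD fell by 0.76 ± 0.03 and HNRNPDL by 0.65 ± 0.03, and the rises were ESRP1 (1.47 ± 0.28, a scarce mRNA here), RBM39 (0.28 ± 0.03), PTBP2 (0.21 ± 0.04), HNRNPR (0.20 ± 0.03) and HNRNPF (0.10 ± 0.04, not without treated library 3 or DMSO library 2, adjusted p = 0.0564 and 0.12). Of 35 core spliceosome genes, 18 fell and 12 rose, with a median of -0.08 that turned to 0.03 without a scaling factor (10 falls, 17 rises). The share that rose (34.3%) was near that of all genes (31.3%). PRPF8, the largest protein at the catalytic centre, stood at 247, 248 and 245 CPM against 597 and 614 CPM and fell by 1.30 ± 0.07. PRPF3, of the tri-snRNP, went the other way and rose by 1.03 ± 0.03. Of 14 nonsense-mediated decay factors, 7 rose, led by UPF3B (0.84 ± 0.05) and UPF1 (0.32 ± 0.05), and 2 fell: SMG6 by 0.29 ± 0.03, and EIF4A3, whose -0.08 ± 0.03 turned to 0.03 without a scaling factor.

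Small nucleolar RNA host genes, whose spliced transcripts are typical substrates of nonsense-mediated decay, were higher in 11 of 13 cases, with a median of 0.88. ZFAS1 stood at 158, 163 and 165 CPM with CC-671 and at 48.0 and 47.6 CPM with vehicle and rose by 1.76 ± 0.04 (adjusted p = 1.01e-21, edgeR). SNHG8 rose by 1.37 ± 0.06, EPB41L4A-AS1 by 1.18 ± 0.06 and SNHG1 by 1.18 ± 0.04. DANCR fell by 0.62 ± 0.03. SNHG16 was 0.08 ± 0.03 lower, and its sign turned without a scaling factor (0.03). Ribosome biogenesis factors were lower in 27 of 36 cases and higher in 3 (NOP58 at 0.21 ± 0.04, RRP9 at 0.19 ± 0.04 and UTP4, deposited as CIRH1A, at 0.10 ± 0.03, the last not without treated library 3 or DMSO library 2, adjusted p = 0.0609 and 0.157), with a median of -0.27; 7 rose without a scaling factor. MYBBP1A fell by 0.88 ± 0.07 and HEATR1 by 0.68 ± 0.06. Of 51 ribosomal protein genes, 25 rose and 8 fell, with a median of 0.09; without a scaling factor 33 rose and 3 fell (median 0.20). RPL22 rose by 0.74 ± 0.04 and RPS19 by 0.59 ± 0.05, and RPS12 fell by 0.51 ± 0.04; pseudogene copies make these counts uncertain.

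Of 22 NF-kB and cytokine genes tested, 11 rose and 3 fell, with a median of 0.46, but only 6 rose without DMSO library 1 and 5 without DMSO library 2 (beside 31.3% of all genes in the full set of libraries), and 17 rose when only the 5 libraries compared were fitted. LIF, a cytokine of the IL-6 family, stood between 37.3 and 41.8 CPM against 9.89 and 10.6 CPM and rose by 1.96 ± 0.19. CCL20 rose by 1.63 ± 0.17, from 13.9 and 14.9 CPM to between 42.3 and 45.9 CPM. IL8 stood at 8.98, 11.9 and 8.28 CPM against 1.66 and 1.67 CPM, yet its call (2.54 ± 0.96, adjusted p = 0.0391, edgeR) was lost with any 1 of the 5 libraries left out (adjusted p = 0.052 to 0.147). CCL2 fell by 1.10 ± 0.14 and IL33 by 0.35 ± 0.09; the fall of IL32 (-0.15 ± 0.06) was lost without either DMSO library (adjusted p = 0.215 and 0.0673). Of 18 AP-1 and EGR genes, 12 rose and 2 fell, with a median of 0.73. EGR1 stood at 37.7, 38.1 and 36.6 CPM against 7.29 and 7.79 CPM and rose by 2.32 ± 0.46, JUNB by 1.57 ± 0.12 and FOSL1 by 1.47 ± 0.12. The 2 falls, KLF6 and IER3 (-0.11 and -0.12), did not hold without a scaling factor (0.00 and -0.01) or without DMSO library 2 (adjusted p = 0.0856 and 0.0853). MYC was not distinguishable from vehicle, at 43.8, 46.6 and 44.1 CPM against 45.8 and 46.2 CPM (-0.04 ± 0.14, adjusted p = 0.832, edgeR).

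Of 24 interferon-stimulated genes tested, 14 rose (58.3%) and 6 fell (25%), with a median of 0.37, beside 31.3% of all genes higher and 32.3% lower. IRF7, a transcription factor of the interferon response, rose by 1.11 ± 0.07 and the scarce IFI35 by 1.23 ± 0.14. IFITM3, a membrane protein that blocks viral entry, fell by 0.73 ± 0.04 from 201 and 198 CPM, and IFIT1 by 0.42 ± 0.07. Of 14 genes of HLA class I presentation, 8 rose and 2 fell. HLA-E rose by 1.10 ± 0.03, from 64.8 and 64.4 CPM to between 137 and 141 CPM, and ERAP1, which trims peptides in the ER, fell by 1.35 ± 0.04, NLRC5 by 1.20 ± 0.17. Reads shared between HLA genes leave these values uncertain.

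Redox, hypoxia and energy genes changed unevenly. Of 20 NRF2 targets, 9 rose (45%) and 6 fell (30%), with a median of 0.10, beside 31.3% of all genes higher and 32.3% lower. The share that fell was thus near that of all genes. HMOX1, heme oxygenase, rose by 1.89 ± 0.36 and SLC7A11, the cystine transporter, by 1.16 ± 0.14, whereas NQO1 fell by 0.30 ± 0.04 and TKT by 0.31 ± 0.03. Of 26 hypoxia and glycolysis genes, 16 fell and 5 rose, with a median of -0.24. VEGFA stood at 181, 191 and 179 CPM against 70.5 and 73.9 CPM and rose by 1.35 ± 0.07, while HK2 fell by 0.78 ± 0.07 and TPI1 by 0.63 ± 0.03. KDM3A (0.38 ± 0.04), BNIP3L (0.32 ± 0.04) and PFKFB3 (0.28 ± 0.04) rose as well; PFKFB4 was 0.23 ± 0.09 higher, not without DMSO library 2 (0.13, adjusted p = 0.315) or treated library 1 or 2 (adjusted p = 0.0568 and 0.0634). Of 39 nuclear genes of oxidative phosphorylation, 22 fell and 4 rose, with a median of -0.14; without a scaling factor 16 fell and 11 rose (median -0.03). UQCRC2 of complex III fell by 1.29 ± 0.03, from 238 and 232 CPM to between 94.7 and 98.0 CPM, and ATP5G1 by 1.12 ± 0.04. NDUFV2 (1.68 ± 0.14), NDUFS7 (0.25 ± 0.04), UQCRB (0.17 ± 0.04) and COX7A2 rose, the last by 0.10 ± 0.04 and not without DMSO library 2 (adjusted p = 0.132). Of the 13 mitochondrial genes, MT-CO1 alone rose (0.27 ± 0.11, adjusted p = 0.0439, edgeR); the 2 vehicle libraries differed in it (4619 and 6006 CPM), its call was lost with any 1 of the 5 libraries left out except DMSO library 2 (0.09, adjusted p = 0.41, without DMSO library 1), and the number of rises ran from 0 to 8 with 1 library left out, 8 without DMSO library 2. Of 31 proteasome genes, 19 fell, led by PSMD4 (-0.62 ± 0.03), and 4 rose by 0.10 to 0.18 (PSMD7, PSMB3, PSMD13 and PSMD14), with a median of -0.11. The rises of PSMD7 and PSMB3 were lost without DMSO library 2 (adjusted p = 0.193 and 0.0542). Without a scaling factor the median was 0.00, with 10 falls.

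Receptor and signalling genes followed. Of 21 growth factor receptor genes, 14 fell and 3 rose (6 without a scaling factor), with a median of -0.22. PDGFRB fell by 1.19 ± 0.05, FGFR4 by 1.11 ± 0.04 and ERBB2, from 192 and 189 CPM to between 108 and 113 CPM, by 0.79 ± 0.04. EPHA2 (0.41 ± 0.03), IGF1R (0.33 ± 0.03) and INSR (0.18 ± 0.04) rose. Of 13 feedback genes of ERK signalling, 6 rose, or 10 without a scaling factor, and 3 fell, with a median of 0.25. DUSP6, a phosphatase of ERK, rose by 0.48 ± 0.03 and SPRY4 by 0.37 ± 0.04, and ETV4 fell by 0.38 ± 0.03; the smaller falls of SPRY1 and IER3 (-0.15 and -0.12) were lost without a scaling factor (adjusted p = 0.269 and 0.911). Of 16 BMP and SMAD genes, 8 rose (50%) and 5 fell (31.25%), beside 31.3% of all genes higher and 32.3% lower. ID3 rose by 0.88 ± 0.03, from 514 and 541 CPM to between 957 and 993 CPM, and ID2 by 0.75 ± 0.04, while BMP5 and BMP4 (-0.57 ± 0.03) fell. The 3 other falls of this list, in BMPR1B, BMPR2 and SMAD6, were lost without a scaling factor (adjusted p = 0.395, 0.458 and 0.903). Of 19 identity genes of epithelial and mesenchymal cells, 8 rose (42.1%) and 6 fell (31.6%), the latter near the 32.3% of all genes. CDH1, E-cadherin, fell by 0.77 ± 0.04, CLDN3 by 0.73 ± 0.06 and VIM, vimentin, rose by 0.68 ± 0.03, from 216 and 208 CPM to between 339 and 343 CPM. Members of the list moved both ways: the mesenchymal CDH2 (-0.29 ± 0.04) fell, and the epithelial keratin genes KRT18 (0.40 ± 0.03), KRT8 (0.25 ± 0.03) and KRT19 (0.25 ± 0.04) rose. Of 15 clock genes, 9 rose (60%) and 4 fell (26.7%, beside 32.3% of all genes). BHLHE40 (0.80 ± 0.04) and CRY2 (0.67 ± 0.04) were higher and CLOCK lower (-0.35 ± 0.04). The falls of CRY1 (-0.16) and NR1D2 (-0.17) were lost without a scaling factor (adjusted p = 0.286 and 0.244), and that of DBP (-0.36) without DMSO library 1 (adjusted p = 0.0729).

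The 2 doses were compared at 24 h. Tested directly against 3 µM CC-671, in a comparison that shares the 3 treated libraries and uses no vehicle library, 1397 genes (6.35%) differed, 549 (2.49%) higher and 848 (3.85%) lower at 10 µM. Without a scaling factor the calls split into 732 higher and 725 lower, and 654 to 858 genes differed with 1 of the 6 libraries left out. When only these 6 libraries were fitted, 3753 genes differed, 1876 higher and 1877 lower. CCNB1 was lower at 10 µM (-0.11, adjusted p = 0.0341, edgeR), a call lost with any 1 of these 6 libraries left out. GPNMB, a lysosomal and melanosomal glycoprotein, was 0.81 higher (adjusted p = 1.12e-08, edgeR), NUPR1 0.73 higher and FAM129A 0.67 higher at 10 µM. DPYSL5 was 0.57 lower, TUBA4A 0.46 lower and TTN 0.45 lower, the last not without 3 µM library 3 (adjusted p = 0.0591); both of these overlap other genes. Among the lists, 22 of 46 mitotic genes and 12 of 24 actin genes were lower at 10 µM and none higher, beside 3.85% of all genes. Of the lysosome genes, 15 of 33 were higher and none lower, and of the host genes of small nucleolar RNAs 9 of 13 were higher and DANCR lower, beside 2.49%. The sizes were small: the median difference was -0.11 over mitotic, -0.13 over actin, 0.08 over lysosome and 0.17 over host genes. Of 36 p53 targets, 3 were higher (GDF15 0.36, SPATA18 0.19 and TP53INP1 0.16) and TP53I11 was 0.15 lower, beside 2.49% and 3.85% of all genes. CDKN1A (-0.05, adjusted p = 0.491, edgeR), MDM2 (0.06, adjusted p = 0.265), TTK (-0.06, adjusted p = 0.406) and CLK2 (0.03, adjusted p = 0.842) did not pass.

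**Figure D4:**
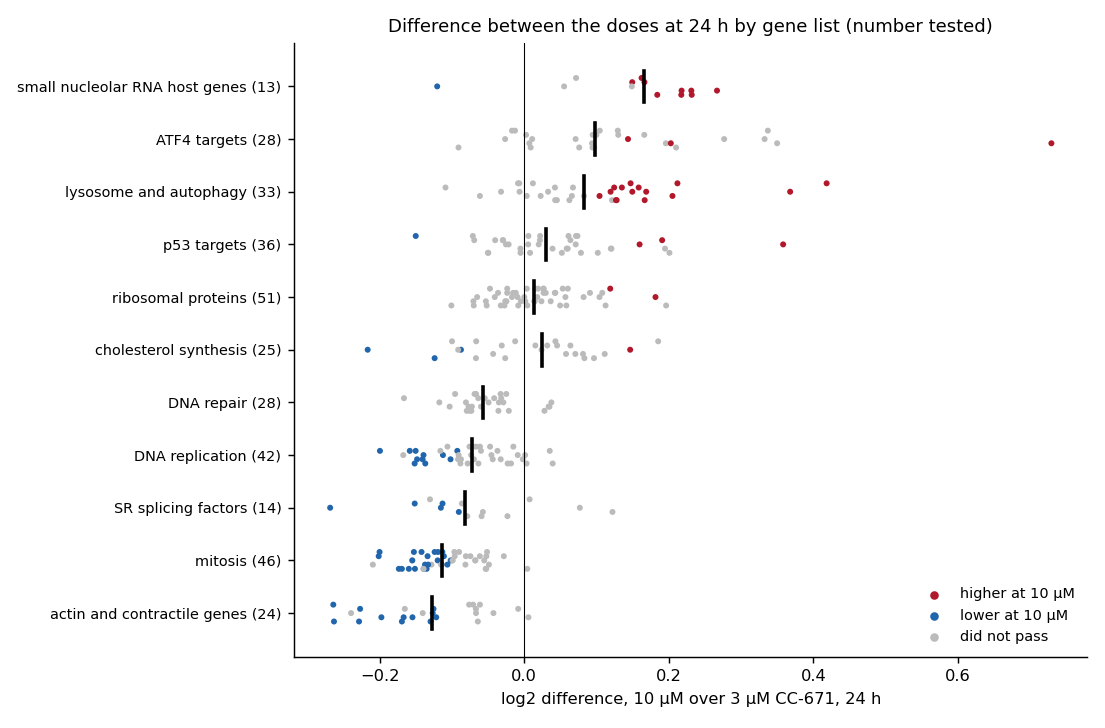
Log2 difference of 10 µM over 3 µM CC-671 at 24 h for the tested members of 11 gene lists, with black bars at the medians; red members were higher at 10 µM, blue lower, and grey did not pass. Most members differ by little; the lysosome and small nucleolar RNA host genes lie to the right and the mitotic and actin genes to the left.

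The late effect was compared with the effect of the same dose at 6 h by testing the difference of the 2 effects, each against DMSO of its own time; it shares the 5 libraries at 24 h with the main comparison. It differed from 0 in 11883 genes (54%), of which 6068 were higher at 24 h and 5815 lower (7280 and 4603 without a scaling factor). Of the actin genes, 22 of 24 had a lower effect at 24 h than at 6 h and none a higher one, beside 26.4% lower of all genes, with a median difference of -0.75. The log2 effect on ACTA2 was 0.02 at 6 h and -1.75 at 24 h. Matrix genes were lower in 20 of 30, ribosomal protein genes in 41 of 51 and histone genes in 18 of 21, with none of the histone genes higher. The median effect at 6 h had been 0.33 over ribosomal protein genes and 1.22 over histone genes. The reverse was seen in 15 of 20 tRNA synthetases, 19 of 28 ATF4 genes, 26 of 42 replication genes and 18 of 28 repair genes, whose effect was higher at 24 h, beside 27.6% of all genes. From 6 h to 24 h the median effect went from -0.44 to 0.08 over synthetases and from 0.43 to 0.87 over ATF4 genes. Over replication genes it went from -0.31 to -0.10 and over repair genes from -0.54 to -0.22, smaller falls rather than rises. The effect on SLC7A11 went from -1.02 to 1.16. That on ASNS went from 0.18 to 1.98 and that on NUPR1 from 1.94 to 4.53. PRKCI, an atypical protein kinase C, had an effect of -2.53 at 6 h and at 24 h stood at 151, 147 and 151 CPM against 155 and 157 CPM (-0.06 ± 0.04, adjusted p = 0.222, edgeR). LYRM7, which overlaps HINT1 on the other strand, went from -2.99 to -0.57. The genes picked for the 3 largest negative differences, near-silent with vehicle, had a larger effect at 6 h by that choice. SELPLG went from 6.26 to 1.62, CMYA5 from 6.04 to 2.43 and BAAT from 5.80 to 2.53. With 10 µM they averaged 13.4, 15.6 and 9.99 CPM at 6 h and 0.463, 1.01 and 0.843 CPM at 24 h. They thus met the average of 1 log2 CPM asked of named genes through the groups at 6 h. At 24 h BAAT stood at 0.803, 0.913 and 0.812 CPM against 0.151 and 0.138 CPM.

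**Figure D5:**
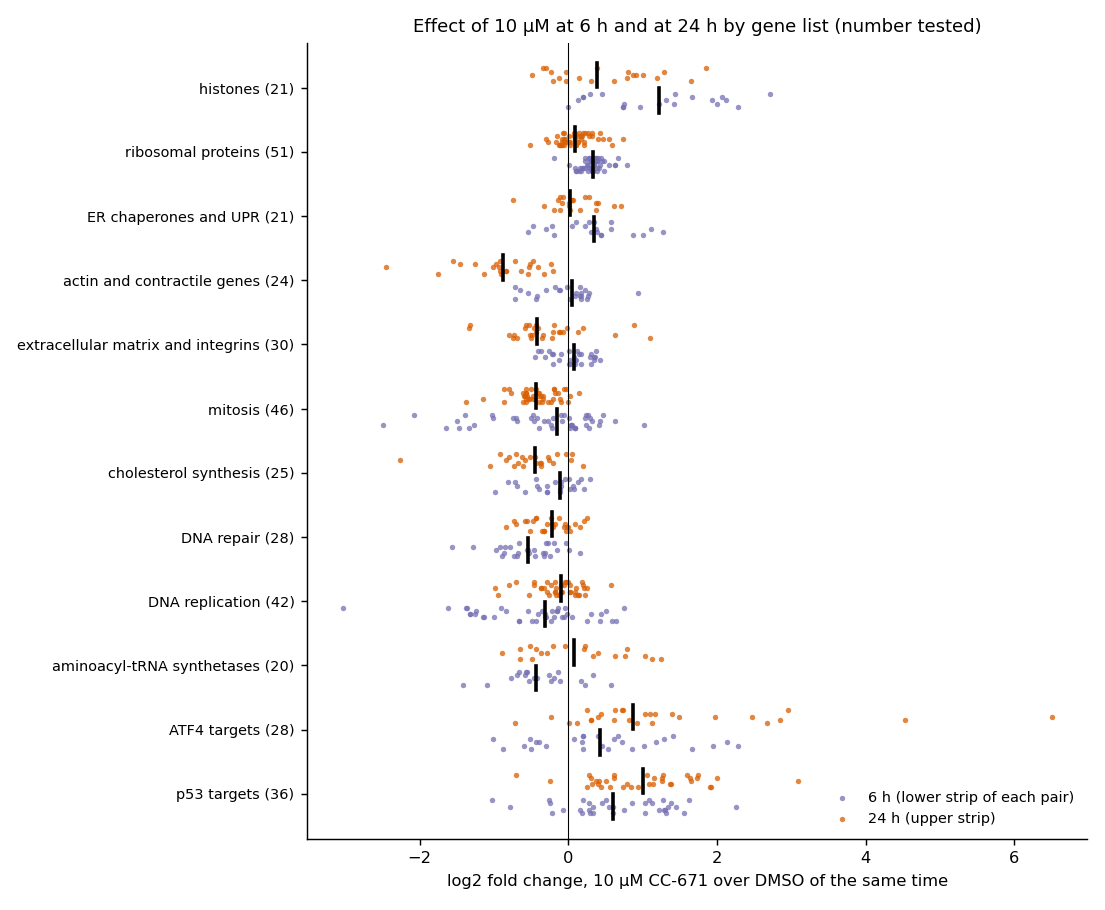
Log2 fold change of 10 µM CC-671 over DMSO at 6 h (purple, lower strip of each pair) and at 24 h (orange, upper strip) for the tested members of 12 gene lists, with black bars at the medians. The actin and contractile genes lie around 0 at 6 h and wholly below 0 at 24 h, whereas the tRNA synthetases move from mostly below 0 to both sides of it.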

How the data were processed

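RNA-seq of CAL51 cells gave 16 libraries, and the values deposited by the authors are raw counts of read pairs per gene symbol, 1 file per library. Per the submitters' processing notes the authors used STAR, HTSeq, edgeR and the build hg19 (GRCh37). Whether counting used strand is not given in the sources used here. The 5 closing HTSeq counters, which name no gene and held 17.3% to 19.9% of the pairs of a library, were left out of library sizes and tests.

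Genes were kept by filterByExpr (minimum count 10, minimum total 15), which left 22007 of 55510 symbols. Libraries were scaled by TMM and fitted with edgeR's robust quasi-likelihood model (edgeR 4.0.16, R 4.3.3) over the 6 groups of all 16 libraries, which share an estimate of the spread. Contrasts of group means were tested by F tests with Benjamini-Hochberg adjustment over all genes tested, at 0.05. SEs were taken as the absolute log2 fold change over the square root of F, and printed CPM values are TMM-normalised. Alternatives were DESeq2 1.42.0, limma-voom (limma 3.58.1), RLE scaling, no scaling factor, minimum counts of 1, a floor of 1 CPM in 5 libraries, models without the other groups, a replicate block, and leaving out each library.

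Same-numbered libraries did not deviate together (correlations -0.0757 to 0.0808 over 36 pairs), so replicate numbers were not taken as pairs. The 41 gene lists held 961 genes, of which 949 were tested, 4 of them matched by an older symbol. The members and lists were chosen with earlier results of these data known. Genes named are the 10 largest rises and falls, the target kinases, up to 4 members a list with the largest changes, members that moved against their list, and the 3 largest differences each way by dose and time. A further 20 (such as ATF4 and those whose promoters are printed) were chosen after their values were seen. Some members that this rule names are not reported here. Promoter windows are RefSeq sequences of GRCh38.p14 and were matched by symbol. Gene overlaps were read from GENCODE on GRCh38, not the build of the counts.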

Additional observations from a re-analysis of the deposited data

Results flagged for a closer look

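Of the 15 genes named for this comparison, 14 passed the interaction test on the log2 effect of 10 µM CC-671 at 24 h minus its effect at 6 h (edgeR, adjusted p under 0.05), which 11883 of all 22007 genes passed. In the 6 that were picked for the largest differences, the effect was higher at 24 h in NUPR1 (2.58), PRKCI (2.47) and LYRM7 (2.42), and lower in SELPLG (-4.64), CMYA5 (-3.61) and BAAT (-3.27). Of the 9 genes followed in every comparison, CDKN1A (0.60), CLK2 (0.39), CLK3 (0.29) and MDM2 (0.15) had a higher effect at 24 h, and CCNB1 (-0.76), CLK4 (-0.42), CLK1 (-0.26) and TTK (-0.19) a lower one. MYC did not pass. The difference in MDM2 was lost without DMSO 6 h library 2 (0.08, adjusted p = 0.153), and that in TTK without a scaling factor (-0.10, adjusted p = 0.158).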

How the results depend on the processing

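Over all alternatives 11218 to 14829 genes changed with 10 µM CC-671 at 24 h, and 11969 to 13307 with 1 library left out. With at least 1 CPM in 5 libraries, which tests fewer genes, 683 genes rose and 316 fell at least 2-fold, and 5 heat shock genes fell. Without a scaling factor 12 ER and 10 ERK feedback genes rose, and 13 replication, 9 G1 and S, 10 core spliceosome and 10 proteasome genes fell. Mitochondrial genes that rose numbered 2 with that filter, DESeq2 or limma-voom, 4 without a scaling factor, 0 with minimum counts of 1, only the groups compared or the replicate block, and 0 to 8 with 1 library left out. NF-kB genes that rose numbered 17 with only the groups compared and 5 to 10 with 1 library left out. The difference between doses held 3753 genes (1876 higher, 1877 lower) with only the groups compared, and 654 to 858 (217 to 295 higher, 437 to 563 lower) with 1 library left out. Single genes that reversed did so without a scaling factor: CDKN1B 0.0444, EIF4A3 0.0278, SNHG16 0.0318, RPL11 0.0096, KLF6 0.0002 and PDIA4 0.0003. The causes were not tested.

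Replicate numbers did not pair the libraries; a replicate block gave 13711 changed genes, 13553 of them shared with the fit without it. With 2 vehicle libraries, leaving out either leaves 1, assumed to vary like the other groups. At these depths, scarce genes such as FGF21 were limited by counting and the others by the number of libraries.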
